A study of Canis lupus familiaris with 32 samples.

Results

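PARP4, HPF1 and BOD1L1 were followed in 32 primary osteosarcomas of the dog through 8 of the 22176 probes of a canine cDNA microarray, 3 genes of the 5246 that the annotation names. Included were all probes that the platform annotation gives one of these symbols: probes 9568 and 18731 for PARP4, probes 880 and 5560 for HPF1, and probes 828, 18092, 20640 and 22150 for BOD1L1. All 8 probes had a value on every array, and none was lost to a filter. The 3 genes were selected on the survival comparison of these same arrays, in which a probe of each was higher in short survivors than in long survivors, so the survival differences given here describe the choice and carry no p-value.

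Tumors came from 16 short survivors (SS), dogs that lived less than 6 months, and 16 long survivors (LS), dogs that lived longer. All were spontaneous tumors of pet dogs, taken at surgery before any therapy, with no transgene, strain or experimental agent in either group. Each tumor was hybridized once, with a reference made by pooling RNA of the whole set of 32 tumors, and 8 tumors of each group carried the dye Cy5 and 8 carried Cy3. Age and breed were not analysed here, and a ratio to a tumor pool gives no absolute level by which the markers of bone tumor could be called present or absent. The values are log2 ratios of tumor over pool, so 0 means the level of the pool, and each dog is 1 replicate.

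ADP-ribosylation is a modification in which an enzyme moves ADP-ribose from NAD onto a protein. PARP4 is a mono-ADP-ribosyltransferase that belongs to the vault, a large cytoplasmic ribonucleoprotein particle. HPF1 binds PARP1 and PARP2 and directs their ADP-ribosylation to serine residues at sites of DNA damage. BOD1L1 protects stalled replication forks from excessive resection of newly made DNA. These roles are known mainly from human cells. Osteosarcoma is a bone-forming malignant tumor with strongly rearranged chromosomes, a setting in which replication stress and DNA repair are often studied.

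The dyes left a strong mark on the arrays and bear on every value below. Per-probe means of Cy5 and Cy3 tumors correlated at -0.657 across probes, and single arrays of opposite orientation had a median correlation of -0.261, whereas within an orientation the lowest correlation was 0.0242 for Cy5 and 0.00406 for Cy3. Correlations across probes describe these arrays only, since probes are not independent replicates. The direction, tumor over pool in both orientations, was taken from the switching that the methods state. The strength of the dye pattern, the slope of an array on the Cy5 minus Cy3 profile of the other arrays, averaged 0.676 in SS and 1.11 in LS tumors labeled with Cy5, and 0.832 in SS and 1.13 in LS tumors labeled with Cy3. It ranged from 0.446 to 0.857 in SS and from 0.964 to 1.27 in LS tumors of the Cy5 arrays, and from 0.213 to 1.06 in SS and from 0.843 to 1.43 in LS tumors of the Cy3 arrays. Dye strength was therefore not balanced between the survival groups. Survival values of the 8 probes are given within each orientation, which does not remove this imbalance. Among the Cy5 arrays the strengths of SS and LS did not overlap, so survival group and dye strength cannot be told apart there. Among the Cy3 arrays they overlapped in part. The signed dye strength of each array, whose sign gives the direction of the dye pattern, was a covariate in an alternative added after seeing the data. The differences were then 0.37 at PARP4 probe 9568, 0.46 at HPF1 probe 880 and 0.64 at BOD1L1 probe 22150. The imbalance between SS and LS is in the size of the strength whatever its sign. This fit therefore does not adjust for it, and nothing is read from the values. The tumors were bulk tissue, so a lower value may stand for fewer cells of a type or for less RNA per cell, and these cannot be told apart.

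**Figure D1:**
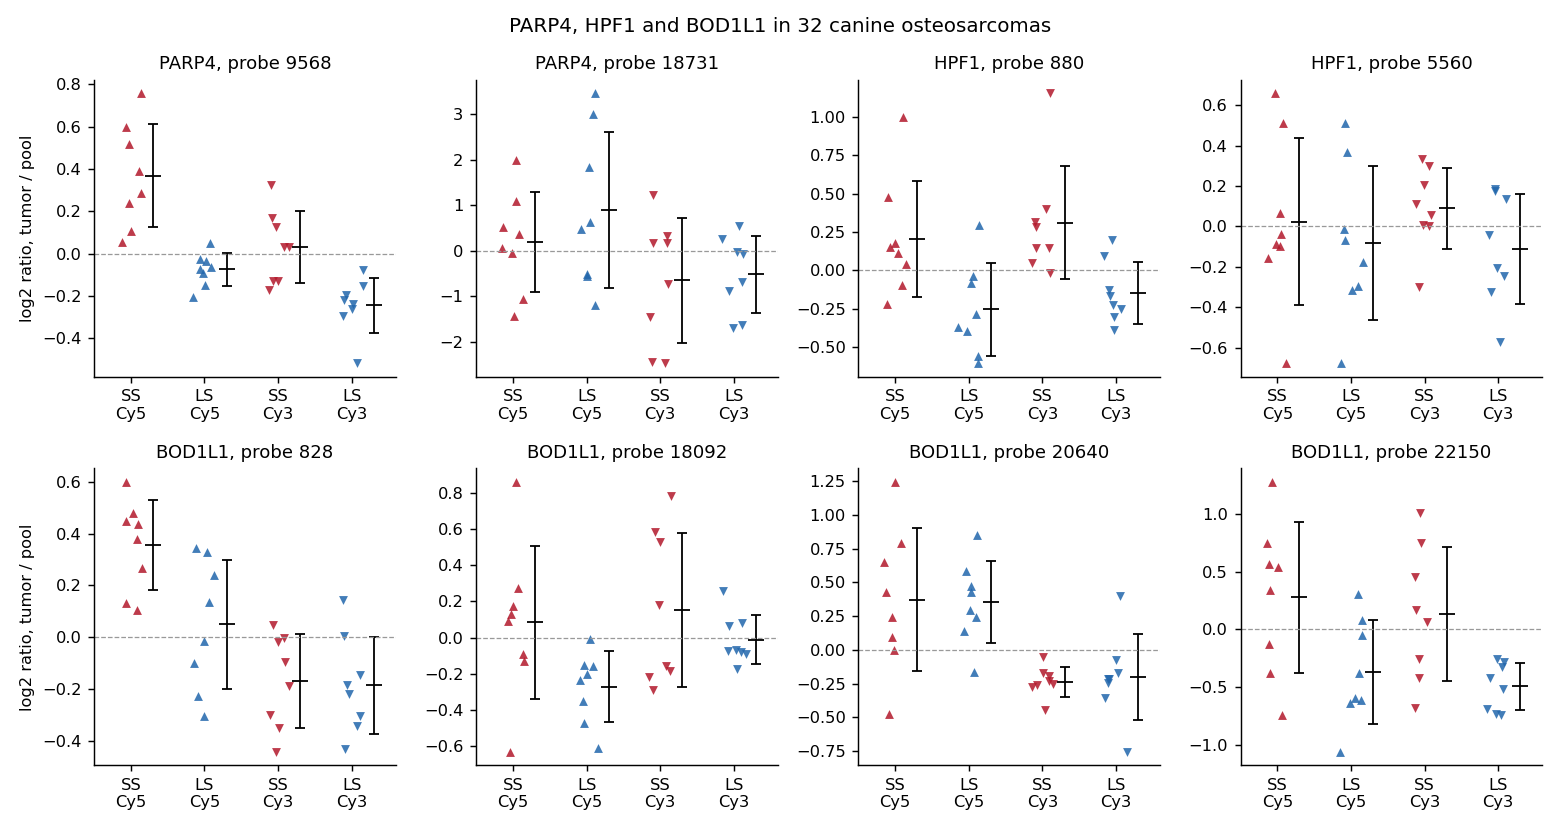
The log2 ratio of tumor over pool is plotted for each of the 8 probes, 1 point per tumor, with SS in red and LS in blue, upward triangles for Cy5 and downward triangles for Cy3 (8 tumors in each column; black bars, mean and SD; each panel has its own scale). At PARP4 probe 9568 all SS tumors lie above all LS tumors among the Cy5 arrays, whereas PARP4 probe 18731 spans from -2.47 to 3.46 with the groups mixed.

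The 2 PARP4 probes gave different pictures. Probe 9568 was higher in SS tumors in both dye orientations, and probe 18731 showed a very wide spread in which SS tumors averaged lower. At probe 9568 the log2 ratio ran from -0.17 through a median of 0.15 to 0.76 in SS tumors, and from -0.52 through -0.15 to 0.053 in LS tumors. SS tumors averaged 0.20 ± 0.27 and LS tumors -0.16 ± 0.14 (SD, n = 16 each). These means lie 0.36 apart with an SE of 0.078, or 1.28-fold. Of the SS tumors 15 of 16 exceeded the mean of LS, 13 were above the pool and 11 were above the highest LS tumor, while 1 LS tumor was above the pool.

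Within the Cy5 arrays, PARP4 probe 9568 ran from 0.054 to 0.76 in SS tumors and from -0.20 to 0.053 in LS tumors, so the groups did not overlap. Over all probes, 1.59% had all SS tumors above all LS tumors in this orientation. Since the choice of the gene used this contrast, nothing is read from its place among them. Within the Cy3 arrays, the values ran from -0.17 to 0.32 in SS and from -0.52 to -0.079 in LS, with 60 of the 64 pairs of an SS and an LS tumor in favor of SS. The difference was 0.44 (SE 0.095) in Cy5 and 0.28 (SE 0.080) in Cy3 tumors.

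PARP4 probe 18731 was among the most variable probes of the array, with an SD of 1.39 over the 32 tumors, at percentile 95.2 of all probes. The other PARP4 probe, 9568, had an SD of 0.28, at percentile 32.0. At probe 18731 the log2 ratio ran from -2.47 through 0.11 to 1.99 in SS and from -1.70 through -0.044 to 3.46 in LS tumors. The groups overlapped almost completely, and SS tumors averaged -0.23 ± 1.27 and LS tumors 0.19 ± 1.498, which is -0.42 for SS minus LS with an SE of 0.47. LS tumor 29 gave the highest value, and without it the difference was -0.20. Within the Cy5 tumors the difference was -0.71 (SE 0.67), and within the Cy3 tumors it was -0.13 (SE 0.53).

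HPF1 was higher in SS tumors at both of its probes, and by more at probe 880. There the log2 ratio ran from -0.22 through 0.15 to 1.15 in SS tumors and from -0.60 through -0.24 to 0.30 in LS tumors. The ranges overlapped, although 15 of 16 SS tumors exceeded the mean of LS and 224 of 256 pairs were in favor of SS. SS tumors averaged 0.26 ± 0.37 and LS tumors -0.20 ± 0.25 (SD, n = 16 each), 0.46 apart (SE 0.11), or 1.37-fold. HPF1 probe 880 differed by 0.46 in both orientations, with an SE of 0.16 in Cy5 and 0.14 in Cy3 tumors. SS tumor 13 gave the highest value, 1.15, and without it the difference was 0.40. Its array also had the weakest dye pattern of the 32, at 0.213.

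At HPF1 probe 5560 the values ran from -0.68 through 0.031 to 0.66 in SS tumors and from -0.68 through -0.12 to 0.51 in LS tumors. SS tumors averaged 0.056 ± 0.32 and LS tumors -0.097 ± 0.32, which is 0.15 apart with an SE of 0.11. This was 0.11 (SE 0.19) in Cy5 and 0.20 (SE 0.12) in Cy3 tumors, so in the Cy5 arrays the difference was smaller than its own error. In all, 13 of 16 SS tumors exceeded the mean of LS.

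BOD1L1 had 4 probes, of which 3 were higher in SS tumors and 1 was at the same mean level in both groups within its error. Probe 22150 showed the largest difference among the 8 probes. Its log2 ratio ran from -0.74 through 0.26 to 1.28 in SS tumors and from -1.06 through -0.47 to 0.30 in LS tumors. The SS tumors were spread widely. Of them, 14 of 16 exceeded the mean of LS and 8 lay above the highest LS tumor. Among the LS tumors, 2 lay below the lowest SS tumor and 2 were above the pool. SS tumors averaged 0.21 ± 0.61 and LS tumors -0.43 ± 0.34 (SD, n = 16 each), 0.64 apart (SE 0.17), or 1.56-fold. The difference was 0.65 (SE 0.27) in Cy5 and 0.63 (SE 0.21) in Cy3 tumors.

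At BOD1L1 probe 18092, values ran from -0.63 through 0.11 to 0.86 in SS and from -0.61 through -0.12 to 0.26 in LS tumors. The difference was 0.26 (SE 0.12), with 0.36 (SE 0.16) in Cy5 and 0.16 (SE 0.15) in Cy3 tumors. The SS tumors spread more widely than the LS tumors at this probe, with SDs of 0.41 in SS and 0.21 in LS. Probe 828 averaged 0.094 ± 0.32 in SS and -0.067 ± 0.25 in LS tumors, 0.16 apart (SE 0.10). Nearly all of it came from the Cy5 tumors, with 0.31 (SE 0.11) there and 0.016 (SE 0.094) in the Cy3 tumors.

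BOD1L1 probe 20640 gave no survival difference beyond its error. Its values ran from -0.47 through -0.11 to 1.25 in SS and from -0.76 through 0.033 to 0.85 in LS tumors, with means of 0.069 ± 0.49 in SS and 0.076 ± 0.42 in LS. The difference of -0.007 had an SE of 0.16, and its sign changed on leaving out any one of 16 of the 32 tumors. It was 0.016 (SE 0.21) in Cy5 and -0.031 (SE 0.12) in Cy3 tumors.

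**Figure D2:**
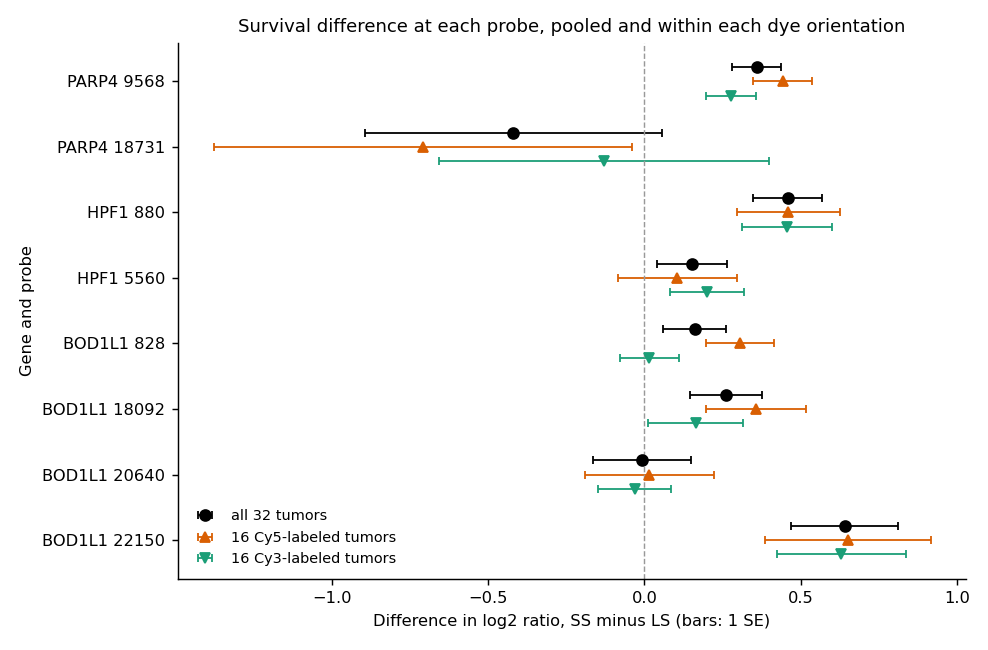
SS minus LS difference in mean log2 ratio for each probe, with bars of 1 SE, over all 32 tumors (circles), the 16 Cy5 tumors (upward triangles) and the 16 Cy3 tumors (downward triangles). PARP4 probe 9568, HPF1 probe 880 and BOD1L1 probe 22150 lie at 0.36, 0.46 and 0.64 and are above 0 in both orientations, while BOD1L1 probe 828 lies at 0.31 in Cy5 and 0.016 in Cy3.

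Of the 3 probes with the largest differences, 1 per gene (PARP4 probe 9568, HPF1 probe 880 and BOD1L1 probe 22150), 6 of 16 SS tumors were above the pool at all 3, 8 at 2 of them and 2 at 1. Among the LS tumors, 0 of 16 were above the pool at all 3, 1 at 2 of them, 4 at 1 and 11 at none. These 3 probes were picked by the survival difference itself, so this split is built into the choice. Nothing is read from it. SS tumor 3 gave the highest value of all 32 tumors at 4 of the 8 probes, namely HPF1 probe 5560 and BOD1L1 probes 828, 18092 and 22150. The genes were chosen for higher values in SS tumors. The share of all probes at which this tumor was highest is not given here, so nothing is read from this count. At 6 of the 8 probes the SD was higher in SS than in LS tumors, against 54.2% of all probes.

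Limma compared SS with LS tumors over all 22176 probes with Benjamini-Hochberg adjustment and a threshold of 0.10. It called 0 probes (0.0%), with 1581 at an unadjusted p under 0.05, and so 0 of the 8 probes. With the dye orientation as a block it called 94 probes (0.424%), among them PARP4 probe 9568 and HPF1 probe 880, 2 of the 8. Within the Cy5 tumors it called 1311 probes (5.91%), of which 1 was PARP4 probe 9568, and within the Cy3 tumors 2129 probes (9.6%), of which 3 were PARP4 probe 9568, HPF1 probe 880 and BOD1L1 probe 22150. Over all probes, 1160 of the 1311 calls in Cy5 tumors were higher in SS, while 1463 of the 2129 calls in Cy3 tumors were lower in SS. These counts use the contrast by which the genes were chosen, and nothing is read from them.

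Dye orientation was compared next. Each orientation held 8 SS and 8 LS tumors, so this contrast was orthogonal to the survival contrast. The choice of genes is still not independent of it. A survival fit without the block counts dye differences as spread, so a choice by it can favor probes with small ones. The ratio was higher in Cy5 than in Cy3 tumors at 4 of the 8 probes (limma with survival group as a term, adjusted p under 0.10), where 64.4% of all probes were called in one direction or the other. BOD1L1 probe 20640 averaged 0.36 ± 0.42 in Cy5 and -0.22 ± 0.23 in Cy3 tumors (SD, n = 16 each), a difference of 0.58 (SE 0.12, adjusted p = 8.94e-05), and 15 of 16 Cy5 tumors were above the Cy3 mean. BOD1L1 probe 828 averaged 0.20 ± 0.26 in Cy5 and -0.18 ± 0.18 in Cy3 tumors, a difference of 0.38 (SE 0.075, adjusted p = 6.48e-05). PARP4 probe 9568 was higher in Cy5 by 0.26 (SE 0.062, adjusted p = 7.84e-04) and PARP4 probe 18731 by 1.13 (SE 0.44, adjusted p = 0.0273).

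For the other 4 probes the dye test did not pass. BOD1L1 probe 22150 differed by 0.14 (SE 0.17, adjusted p = 0.510), HPF1 probe 880 by -0.10 (SE 0.11, adjusted p = 0.423), HPF1 probe 5560 by -0.019 (SE 0.11, adjusted p = 0.900) and BOD1L1 probe 18092 by -0.17 (SE 0.11, adjusted p = 0.206). Both HPF1 probes were thus among those with no detected dye difference, and both PARP4 probes among those with one.

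Whether the survival difference itself depended on the dye was tested with the interaction of survival group and orientation. An interaction also adds spread to the unblocked survival fit, so the choice of genes can favor probes with a small one. Limma called 2384 probes (10.8%), and 0 of the 8 probes were among them, while over all probes 4496 had an unadjusted p under 0.05. At HPF1 probe 880 the Cy5 difference exceeded the Cy3 difference by 0.004 (95% interval -0.45 to 0.46, adjusted p = 0.995), and at BOD1L1 probe 22150 by 0.020 (-0.69 to 0.73, adjusted p = 0.984). At PARP4 probe 9568 it did so by 0.17 (-0.086 to 0.42, adjusted p = 0.486). These intervals include values as large as the survival differences themselves. BOD1L1 probe 828 came nearest to the threshold, with 0.29 (-0.005 to 0.58, adjusted p = 0.253).

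Probes of the same gene tracked each other loosely or not at all from tumor to tumor. Correlations were taken over the 16 tumors of an orientation, with values centered within survival group so that the difference of group means does not enter. Spread among the tumors of a group remains in these values, also where that spread adds to the survival difference. Between probes of the same gene (8 pairs) the median Pearson r was 0.16 in Cy5 and 0.32 in Cy3 tumors, and between probes of different genes (20 pairs) it was -0.003 in Cy5 and -0.13 in Cy3 tumors. In each orientation 5 of 8 same-gene pairs were above 0, and the lowest were at -0.26 in Cy5 and -0.13 in Cy3 tumors. The PARP4 pair was at -0.20 in Cy5 and -0.028 in Cy3 tumors. All points of an orientation share the reference pool and the dye pattern.

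The 2 HPF1 probes correlated at 0.41 in Cy5 tumors (Spearman's rho 0.42, permutation p = 0.130, adjusted p = 0.884) and at 0.42 in Cy3 tumors (rho 0.46, permutation p = 0.0922, adjusted p = 0.884). Without the 2 tumors farthest from the median of probe 880, r was 0.55 in Cy5 and 0.18 in Cy3 tumors. The strongest relation joined PARP4 probe 9568 with BOD1L1 probe 18092 in Cy3 tumors, at r = 0.67 (rho 0.67, permutation p = 0.0133, adjusted p = 0.744), and at 0.72 without the 2 farthest tumors. In Cy5 tumors the same pair gave r = 0.11 (rho 0.36, permutation p = 0.779, adjusted p = 0.889), and 0.64 without the 2 farthest tumors. Of 56 relations, 0 passed an adjusted p of 0.10 by either measure, and 1 had an unadjusted p under 0.05 by Pearson's r and 2 by Spearman's rho.

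**Figure D3:**
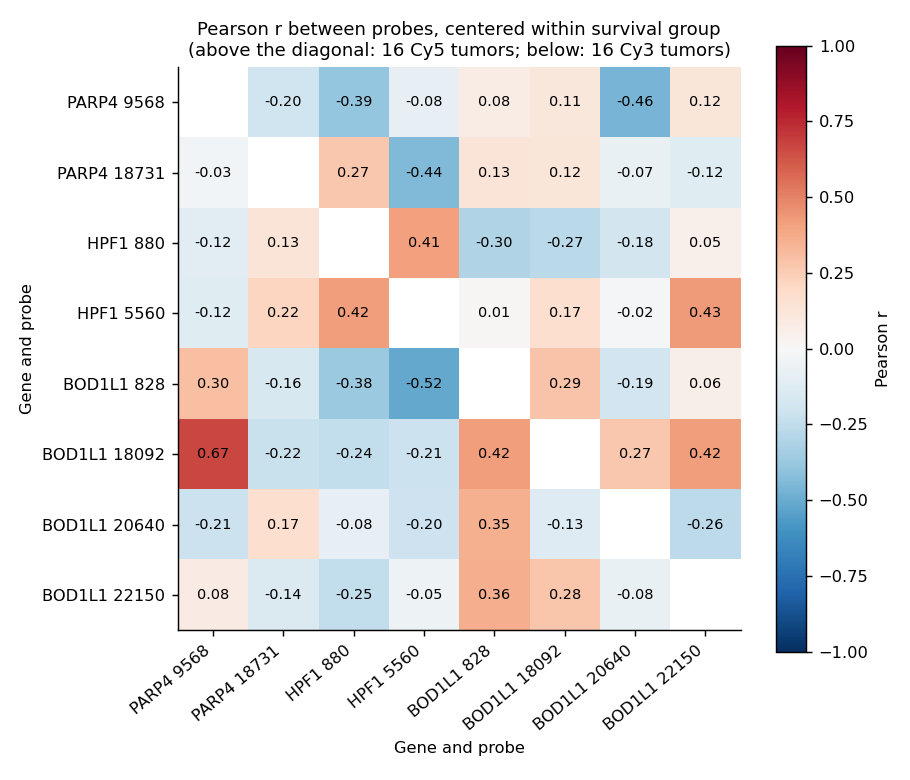
Pearson r between each pair of the 8 probes over 16 tumors, centered within survival group, with Cy5 tumors above the diagonal and Cy3 tumors below it. The pair of HPF1 probes is at 0.41 above and 0.42 below the diagonal, and the highest cell, 0.67, joins PARP4 probe 9568 and BOD1L1 probe 18092 in Cy3 tumors.

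The named genes whose levels most resembled each probe were ranked by the lower of the r in Cy5 and the r in Cy3 tumors, as a description without a test. The ranking used the 7693 probes with a symbol and no missing value, leaving out all probes of the same gene. All arrays share the pool and the dye pattern, and the highest of so many values is high by selection. For PARP4 probe 9568 these were TMED5, a cargo receptor of the early secretory pathway (0.75 in Cy5, 0.71 in Cy3), VASH2 (0.78 and 0.70) and ADGRF5 (0.69 and 0.76). PARP4 probe 18731 was most like INO80E, a subunit of the INO80 chromatin remodeler (0.62 in Cy5, 0.68 in Cy3), DDA1 and LOC476620. These 3 genes differ from the 3 of the other PARP4 probe.

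HPF1 probe 880 was most like PRPS1, which makes the ribose donor for nucleotide synthesis (0.71 in Cy5, 0.85 in Cy3), DNAJC15 (0.68 and 0.81) and TTLL7 (0.68 and 0.76). HPF1 probe 5560 was most like STEEP1 (0.79 in Cy5, 0.78 in Cy3), BRCA1, a homologous recombination and fork protection protein (0.76 and 0.77), and the chromatin protein BAZ1B (0.79 and 0.75). Of the other probes, 175 had both r above 0.5 with HPF1 probe 5560 and 82 with HPF1 probe 880. PARP4 probe 18731 had only 4 such probes.

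BOD1L1 probe 22150 was most like CLK1, a kinase of splicing factors (0.77 in Cy5, 0.75 in Cy3), the chromatin remodeler ATRX (0.63 and 0.74) and the spectrin SPTAN1 (0.82 and 0.63). BOD1L1 probe 18092 was most like GLG1 (0.80 in Cy5, 0.78 in Cy3), CCAR1 (0.84 and 0.77) and ANKRD17 (0.77 and 0.86). BOD1L1 probe 828 was most like the cartilage matrix gene COMP (0.70 in Cy5, 0.64 in Cy3), XRCC6, the Ku70 subunit of end joining (0.54 and 0.63), and CCN3, and BOD1L1 probe 20640 was most like CHD3 (0.65 in Cy5, 0.68 in Cy3), FIBP and GABARAP. Among these 3 genes per probe, none stood under more than 1 BOD1L1 probe.

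Related pathways were read from 11 lists, of which 10 had probes on the array, 97 probes of 71 genes besides the 3 described. Limma called 0 of them over all 32 tumors and 0 with orientation as a block, with 13 at an unadjusted p under 0.05 in the unblocked comparison, where 7.13% of all probes had one. The difference was above 0 at 54 of the 97 probes, with a median of 0.031, beside 49.8% of all probes and a median of -0.001. Within the Cy5 tumors 3 of the 97 probes were called higher in SS and 0 lower, where 5.91% of all probes were called, and within the Cy3 tumors 4 were called higher and 1 lower, where 9.6% were. Both shares lie below those over all probes, so the calls named below are no result about the lists. None of these 8 probes was called in both orientations. Unless an orientation is named, differences of list genes are over all 32 tumors.

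The enzymes closest to PARP4 and the partners of HPF1 showed small differences. Of 9 probes of 5 ADP-ribosyltransferases, 4 were above 0, with 0 at an unadjusted p under 0.05 and a median of -0.028 that turned with the dye, at 0.073 in Cy5 and -0.15 in Cy3 tumors. PARP1, the main partner of HPF1, differed by 0.029 (SE 0.068) and PARP2 by 0.042 (SE 0.093). PARP16, a mono-ADP-ribosyltransferase of the endoplasmic reticulum, differed by -0.10 (SE 0.050, adjusted p = 0.704), and PARP8 by 0.070 (SE 0.15), with 0.27 in Cy5 and -0.13 in Cy3 tumors. ART1 lay between -0.13 and 0.045 over its 5 probes, all of them above 0 in Cy5 and below 0 in Cy3 tumors. Among 8 probes that bind or remove ADP-ribose, CHD1L, a remodeler recruited by poly(ADP-ribose), had the largest difference at -0.86 (SE 0.37, adjusted p = 0.624; -0.84 in Cy5 and -0.87 in Cy3), with MACROH2A1 at 0.27 (SE 0.14) and 0.021 (SE 0.094) at its 2 probes and NUDT5 at 0.16 (SE 0.11). Of the 10 probes for single-strand break and base excision repair 2 were above 0, with a median of -0.064, and for NAD synthesis 1 of 6 was above 0, with a median of -0.049.

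Fork protection genes were the neighbors of BOD1L1 by function. Of 22 probes of 16 genes, 15 were above 0, with a median of 0.098 and 4 at an unadjusted p under 0.05. The helicase FBH1 differed by 0.27 (SE 0.11, adjusted p = 0.624) at 1 of its 3 probes, which was called within the Cy5 tumors (0.50, adjusted p = 0.0736) and was at 0.035 in Cy3. Of the 2 probes of RAD50, of the MRE11 complex, 1 was called within the Cy5 tumors (0.47, adjusted p = 0.0215) and was at -0.18 in Cy3, while the other was at -0.10 in Cy5 and 0.28 in Cy3. BRCA1 was called within the Cy3 tumors (0.26, adjusted p = 0.0585) and was at -0.001 in Cy5. CTC1 differed by -0.18 (SE 0.079), SLX4 by 0.13 (SE 0.063) and BARD1, the partner of BRCA1, by 0.093 (SE 0.057), none passing the test. The 3 largest values of the list, ZRANB3 at 0.66 (SE 0.56), RAD18 at 0.65 (SE 0.57) and RECQL5 at 0.62 (SE 0.57), picked after their values were seen, were hardly larger than their errors.

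Of the replisome probes 16 of 19 lay above 0, with a median of 0.11 and 7 at an unadjusted p under 0.05. RFC1, the large subunit of the clamp loader, differed by 0.39 (SE 0.10, adjusted p = 0.339) over all tumors, with an adjusted p of 0.102 in the blocked fit. It was called within the Cy5 tumors (0.54, adjusted p = 0.00406) and was at 0.24 in Cy3. RFC3, another clamp loader subunit, differed by 0.52 (SE 0.17, adjusted p = 0.512) and was called within the Cy3 tumors at both of its probes (0.52 with adjusted p = 0.0894, and 0.36 with adjusted p = 0.0602). ORC6 of the origin recognition complex was called within the Cy3 tumors too (0.52, adjusted p = 0.0318) and was at 0.32 in Cy5. POLE4 of polymerase epsilon differed by 0.36 (SE 0.12), with 0.23 in Cy5 and 0.49 in Cy3, without passing the test.

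In the other lists 5 of 8 checkpoint probes, 2 of 5 SET1 complex and BOD1 family probes, 4 of 4 mitotic cell cycle probes and 1 of 6 Fanconi anemia probes were above 0. BOD1, the paralog of BOD1L1, differed by -0.065 (SE 0.14), and SETD1A, a methyltransferase that acts with BOD1L1 at forks, by 0.031 (SE 0.069). The mitotic probes, with RRM1 at 0.39 (SE 0.23) and 0.16 (SE 0.11), CCNB2 at 0.38 (SE 0.26; -0.016 in Cy5 and 0.77 in Cy3) and BIRC5 at 0.36 (SE 0.22), did not pass the test. The nuclease FAN1 was called lower in SS within the Cy3 tumors at 1 of its 4 probes (-0.36, adjusted p = 0.0685), and that probe alone of the 8 list probes called within an orientation passed the interaction test (0.42, adjusted p = 0.0689).

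**Figure D4:**
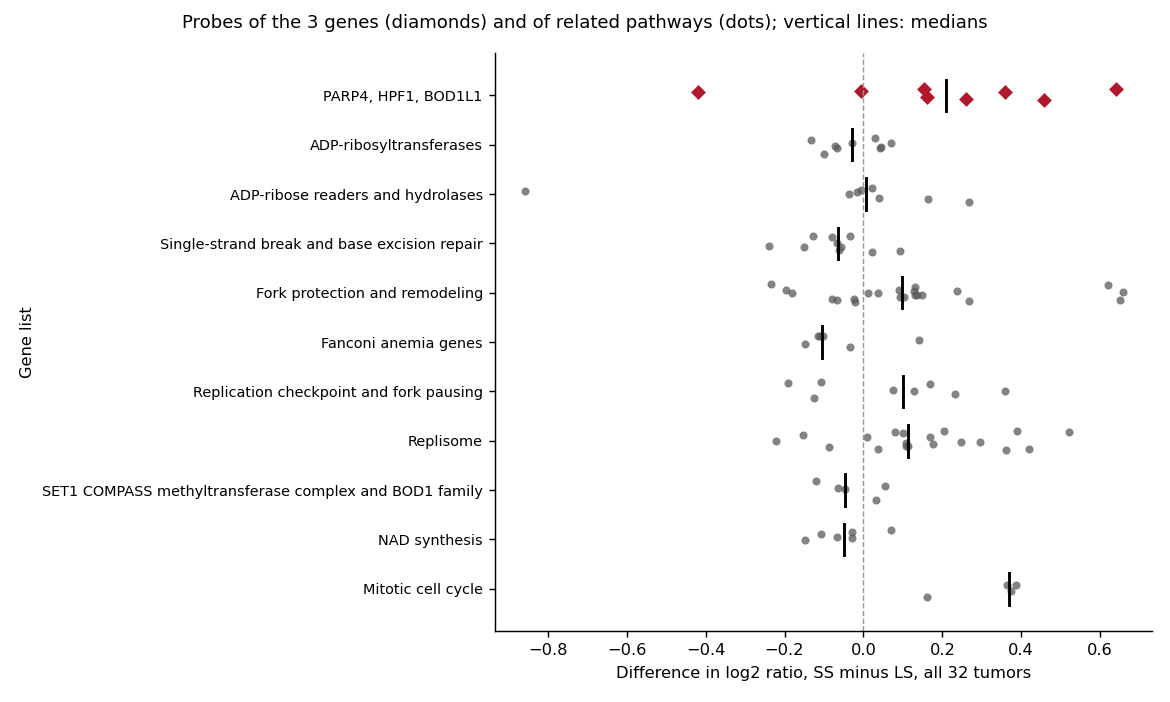
SS minus LS difference in log2 ratio over all 32 tumors for the 8 probes of PARP4, HPF1 and BOD1L1 (red diamonds) and for the 97 probes of 10 related lists (gray dots), with a black line at each median. The replisome list has 16 of 19 probes above 0, and the 3 rightmost fork protection probes have SEs of 0.56 to 0.57.

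Markers of other cells in the tissue were read beside these values. Limma called 0 probes of the cell lists over all 32 tumors and 0 with orientation as a block. Bone matrix and osteoblast probes had a median difference of -0.43 with 1 of 15 above 0 (-0.30 in Cy5 and -0.60 in Cy3 tumors), and osteoclast probes 0.45 with 3 of 3 (0.78 in Cy5 and 0.12 in Cy3). Cartilage probes, of 2 genes, were at -0.32 with 0 of 5 above 0, and their median turned with the dye, at 0.17 in Cy5 and -0.81 in Cy3 tumors. Leukocyte probes, of 10 genes, had a median of 0.12 with 11 of 14 above 0 (0.15 in Cy5 and 0.12 in Cy3). Skeletal muscle probes, of 16 genes, were at -0.14 with 8 of 38 above 0 (-0.10 in Cy5 and -0.21 in Cy3). Endothelial probes, of 5 genes, were at -0.090 with 5 of 13 above 0 (-0.077 in Cy5 and 0.12 in Cy3). Within the Cy3 tumors 4 of the 38 muscle probes were called lower in SS, where 9.6% of all probes were called, and within the Cy5 tumors 1 was called higher, where 5.91% were. The part of these markers in the differences of PARP4, HPF1 and BOD1L1 was not tested.

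PARP4 and HPF1 lie on the same dog chromosome, 25, with 14 protein-coding genes between them, of which 5 have probes, by the gene order of the RefSeq assembly UU_Cfam_GSD_1.0. Across the interval and the 5 nearest genes with a probe on either side, 13 of 19 probes of 15 other genes were above 0, with a median difference of 0.058 and a range from -0.22 to 0.57. Limma called 0 of these probes, with or without the block. Of the 5 genes between PARP4 and HPF1, over all 32 tumors CCDC115 differed by 0.20 (SE 0.185) and PALLD by 0.075 (SE 0.14). CBR4 differed by -0.007 (SE 0.24) and CLCN3 by -0.13 (SE 0.175). ATP12A differed by -0.013 (SE 0.058) and -0.13 (SE 0.092) at its 2 probes. PALLD (-0.17 in Cy5, 0.32 in Cy3) and CBR4 (-0.33 in Cy5, 0.32 in Cy3) turned with the dye. Beyond HPF1, HMGB2, a chromatin protein of proliferating cells, differed by 0.57 at both of its probes (0.40 and 0.31 in Cy5, 0.74 and 0.83 in Cy3), and the sterol synthesis enzyme FDFT1 by 0.43 (SE 0.26; 0.72 in Cy5 and 0.15 in Cy3).

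BOD1L1 lies on chromosome 3. Of 16 probes of its 10 nearest genes with a probe, 10 were above 0, with a median of 0.014 and a range from -0.27 at CC2D2A to 0.41 at LYAR, a nucleolar protein (0.22 in Cy5 and 0.61 in Cy3), and limma called 0 of them. The highest differences among the neighboring probes of both regions were those of HMGB2, FDFT1 and LYAR named here. CRYL1, before PARP4, followed at 0.31 (SE 0.27; 0.40 in Cy5 and 0.22 in Cy3 tumors). Most genes between PARP4 and HPF1 have no probe, and whether a region shares a difference was not tested. Copy number was not measured on these arrays.

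**Figure D5:**
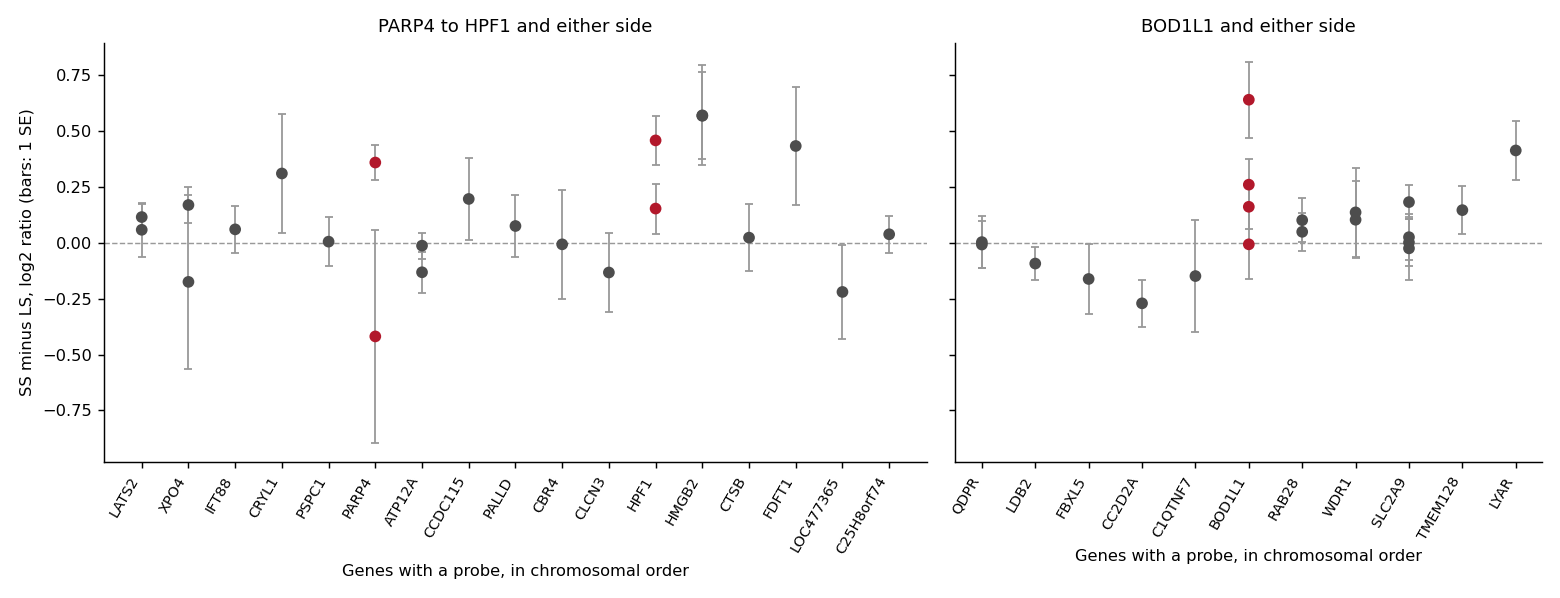
SS minus LS difference in log2 ratio, with bars of 1 SE, for probes of genes in chromosomal order around PARP4 and HPF1 (left) and around BOD1L1 (right), with the probes of the 3 genes in red. The genes between PARP4 and HPF1 lie between -0.13 and 0.20, and HMGB2, after HPF1, lies at 0.57.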

How the data were processed

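Each tumor RNA and the common pool were hybridized on a two-color cDNA array. Poor spots were flagged, ratios were normalized by Lowess within print tips and put on a log scale, and arrays with swapped dyes were turned, all by the authors. Their deposited log2 ratios were used unchanged, with the base and the tumor over pool direction read here from the methods and the values, since the sources used here do not name the base. Of 22176 probes, 7694 had 1 symbol and 14482 none in the platform annotation. Those without are unnamed here. There were 5 missing values, array medians from -0.03 to 0.02 and array SDs from 0.474 to 0.762. Channel intensities were not used here, so spot background was not checked, and the number of arrays limits the precision.

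Moderated two-sided tests (limma 3.58.1, under R 4.3.3) were fitted to all probes with Benjamini-Hochberg adjustment and a threshold of 0.10, without covariates, with orientation as a block, within each orientation, for orientation with survival group as a term, and for their interaction. The fits were tried on simulated data with known changes at 100 probes of each size. Of changes of 0.5, the unblocked survival fit recovered 53, the blocked fit 72 and the interaction fit 22. Of changes of 1.0 they recovered 94, 97 and 80. The simulated arrays had no dye strength that varied from array to array, so the simulation does not cover the imbalance described above. Correlations used 100000 permutations within survival group in SciPy 1.17.1 under Python 3.11.15. Alternatives were array scaling, centering and weights, sex and chemotherapy as covariates, medians, a rank-sum test, the Cy3 sign turned, and each tumor left out. The genes and lists were chosen with earlier results of these data known. Named genes are the 8 probes, the 3 most alike genes for each, and up to 4 genes per list with the smallest p. PARP1, the list genes called within an orientation, ZRANB3, RAD18, RECQL5 and the named chromosomal neighbors were added after their values were seen. The vault particle and erythroid lists had no probes. RefSeq served for gene order only, and no probe sequence was used here.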

Additional observations from a re-analysis of the deposited data

Results flagged for a closer look

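At HPF1 probe 880, SS tumor 13, labeled with Cy3, stood apart from the other SS tumors of its orientation. Its log2 ratio was 1.154, where the next highest of the 8 tumors was at 0.399 and the lowest at -0.019, so that the gap took 0.644 of the range of those 8 tumors, more than Dixon's criterion allows. It was the only such case among 32 groups of 8 tumors examined, and chance alone marks about 1 in 20. The same array had the weakest dye pattern of its group, with a strength of 0.213 where the other 7 lay between 0.822 and 1.06, and the part of this in the value was not tested. Without this tumor the SS minus LS difference of HPF1 probe 880 was 0.40, beside 0.46 with it.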

How the results depend on the processing

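Over all probes, the count of SS against LS calls was 0 in the unblocked comparison, 94 with orientation as a block, 3 with array weights, 10 by the rank-sum test (1 of them among the 8 probes) and 2214 with the Cy3 sign turned. Interaction calls numbered 3965 with array weights against 2384 without, and list probes called numbered 3 in Cy5 and 5 in Cy3 tumors against 0 over all. With the Cy3 sign turned the SS minus LS difference was 0.083 at PARP4 probe 9568, 0.002 at HPF1 probe 880, 0.010 at BOD1L1 probe 22150, -0.048 at HPF1 probe 5560 and 0.024 at BOD1L1 probe 20640, so these differences rest on the stated direction. BOD1L1 probe 20640 also changed sign with scaled arrays (0.001), with signed dye strength as a covariate (0.012, an alternative added after seeing the data) and on leaving out single tumors (-0.086 to 0.044). By medians PARP4 probe 18731 differed by 0.157. Without single tumors it ranged from -0.567 to -0.201, the value without LS tumor 29. The interaction at HPF1 probe 880 was -0.084 with scaled arrays, -0.001 with centered arrays and -0.124 with array weights, and at BOD1L1 probe 20640 it was -0.005 with array weights. The cause was not tested. No paired analysis was possible because each tumor carries its own number, 1 to 32, and none is shared between groups. Without single tumors the differences ranged from 0.322 to 0.384 at PARP4 probe 9568, 0.398 to 0.491 at HPF1 probe 880 and 0.568 to 0.703 at BOD1L1 probe 22150.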
